A study of Mus musculus with 8 samples.

Results

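The genes for the NF-κB subunits and for the proteins that hold NF-κB in check were described in mouse macrophages in which the long non-coding RNA MAARS had been knocked down. There are 10 of them among the 49315 genes of the count table, chosen by name. They are the 5 subunits Nfkb1, Nfkb2, Rela, Relb and Rel and the 5 feedback inhibitors Nfkbia, Nfkbib, Nfkbie, Nfkbiz and Tnfaip3. All 10 passed the filter on low counts that left 13051 genes in the test.

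The cells were bone marrow-derived macrophages (BMDMs) of C57BL/6 mice, grown with 10 ng/ml of M-CSF, the growth factor that turns marrow cells into macrophages. Cells of 4 libraries, replicates 2, 5, 6 and 7, were transfected with control gapmeRs. Cells of 4 others, replicates 9, 11, 13 and 15, were transfected with gapmeRs against MAARS. A gapmeR is a short antisense oligonucleotide that directs RNase H to cut the RNA it pairs with. Both groups received oligonucleotide at the same 25 nM by lipofection, there was no untransfected group, and no inflammatory stimulus is named for these samples. The labels name MAARS gapmeRs and control gapmeRs, and whether each was a single sequence is not stated for these libraries. The paper selected a MAARS gapmeR for further studies and used others in some experiments. A response to the knockdown therefore cannot be told apart from a response to the oligonucleotide sequences used in either group. Fell and rose below give the level after the MAARS gapmeR relative to the control gapmeR, whichever group had moved. No source used here says whether the libraries of a group came from separate mice or cultures, so p-values measure the spread between these libraries only.

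Total counts ran from 19287279 to 20567123 in the control libraries and from 20839671 to 24541205 in the MAARS gapmeR libraries. MAARS itself (Gm14461) had 238, 296, 240 and 249 counts in the controls and 163, 161, 159 and 135 counts after the MAARS gapmeR. Its level fell by 48.1% (log2 fold change -0.95, SE 0.112, exact two-sided permutation p = 0.0286, the smallest that 4 against 4 libraries allow). That is a smaller loss than the paper reports for MAARS gapmeRs in other BMDM experiments. Both groups carried macrophage transcripts, with a summed level of 8 macrophage markers of 14104 to 17338 counts per 1000000 (CPM) in the controls and 17107 to 20347 CPM after the MAARS gapmeR. Of these 8 markers 4 rose and 3 fell, against 21.3% and 24.0% of all genes tested. Fcgr1, an Fc receptor picked after its value was seen, fell by 2.09 on the log2 scale. Of 35 markers of 7 other cell types 13 were tested and 0 were called by edgeR or limma-voom, against 1 by DESeq2 and 1 at an unadjusted edgeR p under 0.05. Stromal markers summed to 460 to 1047 CPM in the controls and 720 to 1237 CPM after the MAARS gapmeR, and neutrophil markers to 55 to 154.4 and 57.8 to 92.9 CPM. T-cell, mast-cell and erythroid markers each stayed below 1 CPM in sum and dendritic-cell markers at or below 2.38 CPM, and Cd3g, Fcer1a and Tpsb2 had no count in any library. The share of counts from mitochondrial genes was 0.397% to 0.548% in the controls and 0.694% to 0.868% after the MAARS gapmeR, and its part in the results below was not tested. In bulk RNA, fewer cells of a kind and less RNA per cell cannot be told apart.

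NF-κB is a family of dimeric transcription factors built from RelA, RelB, c-Rel, p50 and p52, of which p50 and p52 are processed from the products of Nfkb1 and Nfkb2. In resting cells the IκB proteins keep the dimers in the cytoplasm, and signals from Toll-like, interleukin-1 and tumour necrosis factor receptors lead to degradation of IκB and entry of the dimers into the nucleus. The dimers bind κB sites, and several of the genes they switch on encode their own inhibitors, a negative feedback that ends the response of a macrophage to microbial products.

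**Figure D1:**
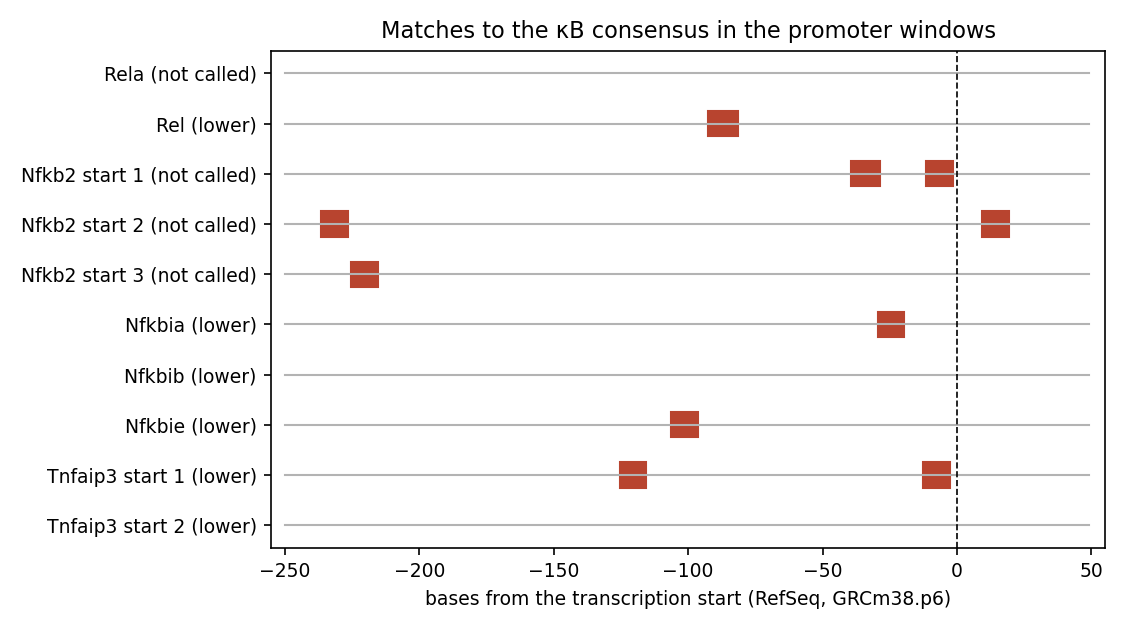
Position of κB consensus matches in the member promoters, by distance in bases from the transcription start (x axis) and by annotated start (rows). The 10 windows run from 250 bases before the start to 50 bases from it on, and 7 of them hold a match. The windows of Nfkbib, Rela and start 2 of Tnfaip3 hold none.

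The promoters of the members were read to show how far the κB site, the sequence through which NF-κB acts back on its own genes, is written into them. RefSeq start sites on GRCm38.p6 gave 10 windows for 7 members, and Nfkb1, Relb and Nfkbiz had no entry. Both strands were searched for the κB consensus GGGRNNYYCC (R is A or G, Y is C or T, N is any base), and overlapping matches were merged. Stretches that differ from it at any base were not marked, also where they resemble a κB site. The window of Nfkbia holds a single match, at positions -29 to -20 from the start. That of Tnfaip3 at its first start holds 2, at -125 to -116 and at -12 to -3. Nfkb2 at its first start also holds 2, at -39 to -29 and at -11 to -2. No match lies in the Nfkbib window. The 250 bases upstream of these 4 starts are printed 5′ to 3′ on the gene's strand, with κB matches in capitals, for chr12:55492648-55492897 (minus strand), chr10:19015411-19015660 (minus strand), chr19:46304487-46304736 (plus strand) and chr7:28766645-28766894 (minus strand).
Nfkbia: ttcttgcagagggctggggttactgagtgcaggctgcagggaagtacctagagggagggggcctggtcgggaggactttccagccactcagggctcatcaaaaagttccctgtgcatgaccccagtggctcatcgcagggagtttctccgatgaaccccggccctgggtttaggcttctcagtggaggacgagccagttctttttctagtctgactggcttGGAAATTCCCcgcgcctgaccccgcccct
Tnfaip3: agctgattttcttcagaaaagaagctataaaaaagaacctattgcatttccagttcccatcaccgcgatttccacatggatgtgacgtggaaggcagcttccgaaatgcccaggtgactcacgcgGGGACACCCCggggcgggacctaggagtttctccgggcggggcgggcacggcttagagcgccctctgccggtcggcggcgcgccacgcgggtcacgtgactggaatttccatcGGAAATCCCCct
Nfkb2: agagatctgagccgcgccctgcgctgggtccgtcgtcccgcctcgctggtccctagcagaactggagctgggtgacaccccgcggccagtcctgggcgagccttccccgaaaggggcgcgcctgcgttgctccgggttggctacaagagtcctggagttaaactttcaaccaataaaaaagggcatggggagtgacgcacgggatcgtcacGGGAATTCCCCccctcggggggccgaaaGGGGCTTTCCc
Nfkbib: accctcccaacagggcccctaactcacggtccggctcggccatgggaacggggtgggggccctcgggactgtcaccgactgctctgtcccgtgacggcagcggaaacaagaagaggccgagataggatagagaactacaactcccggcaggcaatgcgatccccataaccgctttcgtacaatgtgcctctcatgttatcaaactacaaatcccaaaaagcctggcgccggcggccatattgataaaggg

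In the map of κB matches, Rel had a match at -92 to -82 and Nfkbie at -106 to -97. Starts 2 and 3 of Nfkb2 added matches as well, and since those windows overlap, the 10 matches drawn are 9 separate places in the genome. Start 2 of Tnfaip3 held no match. Of 32851 promoter windows of this length in the table, 8.46% held a match and 0.517% held 2 or more. Among the 7 members with a window, 5 held a match (Rel, Nfkbia, Nfkbie, Tnfaip3 and Nfkb2) and 2 did not (Nfkbib and Rela). A match is a run of letters and not evidence of binding.

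Of the 10 members, 7 fell after MAARS knockdown, 0 rose (also 0 at an unadjusted p under 0.05 and 0 by DESeq2 or limma-voom) and 3 were not called at an adjusted p under 0.05 (quasi-likelihood test of edgeR, p-values adjusted by Benjamini-Hochberg over 13051 genes). Over all genes tested, 24.0% were called lower and 21.3% higher, with a median log2 fold change of 0.01. All 5 genes listed as inhibitors fell, with a median log2 fold change of -0.58, whereas 2 of the 5 subunits (Relb and Rel) fell, with a median of -0.10. This split follows the listing. Nfkb1 and Nfkb2, listed as subunits, encode precursors that also act as inhibitors, and neither was called. Nfkbiz, listed as an inhibitor, can also activate genes. Rel lost its call in 9 of 15 alternative fits, with an edgeR adjusted p of up to 0.224, and Relb in none of them. In 6 members every MAARS gapmeR library lay below every control library, as it did in 22.8% of all genes tested. The median of the 10 members was -0.46 on the log2 scale. With upper-quartile scaling factors in place of trimmed mean of M-values (TMM) factors, the median of all genes moved to 0.07 and the share of calls that were higher from 47.0% to 60.4%, and 6 members were then called lower.

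**Figure D2:**
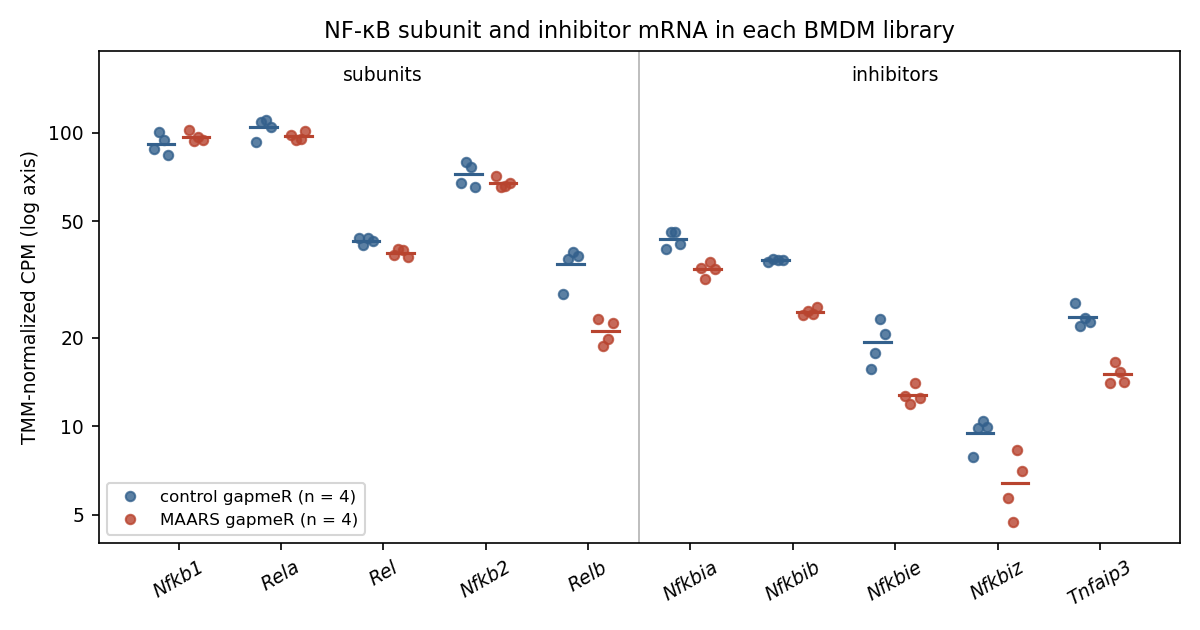
Level of each member in each library, in CPM on a log axis, with control gapmeR and MAARS gapmeR libraries as separate points and a bar at each group mean. Points of the groups are apart for Relb, Rel, Nfkbia, Nfkbib, Nfkbie and Tnfaip3 and overlap for Nfkb1, Nfkb2, Rela and Nfkbiz.

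Nfkbia (ENSMUSG00000021025, chr12:55489410-55492647, minus strand, GRCm38) encodes IκBα, the inhibitor that is degraded and made anew fastest during a response. It stood at 40.2, 46.0, 46.0 and 41.6 CPM in control replicates 2, 5, 6 and 7 and at 34.6, 31.7, 36.3 and 34.2 CPM in MAARS gapmeR replicates 9, 11, 13 and 15. The highest MAARS gapmeR library was below the lowest control. The mean went from 43.4 ± 3.0 to 34.2 ± 1.90 CPM (SD, n = 4 each), so it fell by 21.3%, a log2 fold change of -0.35 (SE 0.0637, 95% interval -0.48 to -0.21, edgeR adjusted p = 0.00114).

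Nfkbib (chr7:28758251-28767512, minus strand), the gene for the slower-cycling IκBβ, gave the smallest p of the 10 and stood at rank 169 among all genes by p. Its control libraries held 36.3, 37.2, 36.7 and 36.8 CPM and the MAARS gapmeR libraries 24.0, 24.7, 24.1 and 25.5 CPM. The spread within each group was very small beside the gap between them, with a coefficient of variation of 0.999% in the controls, where counting error alone gives 3.73%. So small a spread can arise by chance in so few libraries, and its part in the small p was not tested. Nfkbib fell by 33.1%, from 36.8 ± 0.367 to 24.6 ± 0.683 CPM, a log2 fold change of -0.58 (SE 0.0488, 95% interval -0.69 to -0.47, edgeR adjusted p = 7.32e-06). Of its exons 16.4% overlap Sirt2 or Ccer2 on the opposite strand, and the strand setting of the counting is not given in the sources used here. Sirt2, a deacetylase gene, rose from 140.2 to 155.2 CPM (log2 fold change 0.15, edgeR adjusted p = 0.024), opposite in direction to Nfkbib, and Ccer2 had 0 counts.

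Nfkbie (chr17:45555703-45563169, plus strand) encodes IκBε, the third classical inhibitor. The controls read 15.7, 17.7, 23.2 and 20.6 CPM, and the MAARS gapmeR libraries 12.7, 11.9, 14.0 and 12.5 CPM. The controls were spread widely, with a coefficient of variation of 17%, yet all lay above all MAARS gapmeR libraries. The mean fell by 33.9%, from 19.3 ± 3.28 to 12.8 ± 0.886 CPM, a log2 fold change of -0.60 (SE 0.115, 95% interval -0.85 to -0.35, edgeR adjusted p = 0.00148).

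Nfkbiz (chr16:55811375-55838899, minus strand) encodes IκBζ, an atypical nuclear member that acts on chromatin together with p50 and can activate as well as repress genes. Its levels were the lowest of the 10 per length and its libraries the most scattered after the MAARS gapmeR. They were 7.88, 9.83, 10.4 and 9.92 CPM in the controls and 5.68, 4.73, 8.27 and 7.02 CPM after the MAARS gapmeR. The groups overlapped, since MAARS gapmeR replicate 13 was above control replicate 2, while the other 3 MAARS gapmeR libraries were below every control. Nfkbiz fell by 32.6%, from 9.52 ± 1.12 to 6.43 ± 1.55 CPM, a log2 fold change of -0.57 (SE 0.163, 95% interval -0.93 to -0.21, edgeR adjusted p = 0.0144).

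Tnfaip3 (chr10:19000910-19015657, minus strand) encodes A20, which edits ubiquitin chains on signalling proteins upstream of the IκB kinase and so stops the signal before it reaches IκB. The control libraries had 26.2, 21.9, 23.4 and 22.7 CPM and the MAARS gapmeR libraries 14.0, 16.6, 15.3 and 14.2 CPM. No library of one group reached into the range of the other. Its mean was 23.6 ± 1.84 CPM in the controls and 15 ± 1.19 CPM after the MAARS gapmeR, so that it fell by 36.1%, a log2 fold change of -0.65 (SE 0.0803, 95% interval -0.82 to -0.47, edgeR adjusted p = 8.02e-05).

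Among the subunits Relb (chr7:19606217-19629438, minus strand) moved most. RelB is the partner of p52 in the non-canonical pathway and cannot form transcriptional dimers with itself. Its control libraries held 28.2, 37.2, 39.2 and 37.9 CPM and the MAARS gapmeR libraries 23.1, 18.8, 19.9 and 22.5 CPM. Control replicate 2 was the low one of its group and still above every MAARS gapmeR library. Relb fell by 40.9%, from 35.6 ± 5.02 to 21.1 ± 2.07 CPM, with a log2 fold change of -0.76 (SE 0.106, 95% interval -0.99 to -0.53, edgeR adjusted p = 0.000176).

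Rel (chr11:23736847-23770970, minus strand), the gene for c-Rel, showed a small decrease whose call depended on the analysis. It had 43.8, 41.3, 43.6 and 42.6 CPM in the controls and 38.2, 40.3, 39.7 and 37.7 CPM after the MAARS gapmeR. The groups did not overlap, but the gap between them was about the size of the spread within them. The mean fell by 9.01%, from 42.8 ± 1.14 to 39.0 ± 1.21 CPM, a log2 fold change of -0.14 (SE 0.0477, 95% interval -0.24 to -0.03, edgeR adjusted p = 0.0365). The call was lost in 9 of 15 alternative fits, with adjusted p = 0.224 under upper-quartile factors (log2 fold change -0.07), 0.0757 with DESeq2 and 0.125 in edgeR with no filter. It was also lost in edgeR without control replicate 2, 6 or 7 or without MAARS gapmeR replicate 9, 13 or 15, with adjusted p between 0.0545 and 0.0922.

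The genes for the other 3 subunits were not called. Rela (chr19:5637483-5648130, plus strand), whose product is the main activating subunit of the canonical pathway, had 92.9, 108.9, 110.8 and 104.4 CPM in the controls and 98.3, 94.6, 95.2 and 101.6 CPM after the MAARS gapmeR. Control replicate 2 lay below every MAARS gapmeR library and the other 3 controls above. The log2 difference was -0.10 (SE 0.0575, edgeR adjusted p = 0.187), with a 95% interval of -14.4% to 1.99%. Without control replicate 2 it was -0.14 and passed the threshold (edgeR adjusted p = 0.0301).

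Nfkb1 (chr3:135584655-135691547, minus strand) encodes p105, the precursor of p50 and itself an inhibitor until it is processed. Its libraries read 88.1, 100.1, 94.4 and 83.6 CPM in the controls and 101.9, 93.9, 96.5 and 94.4 CPM after the MAARS gapmeR. The ranges overlapped, and Nfkb1 was the only member of the 10 with a positive difference, 0.08 on the log2 scale (SE 0.0586, 95% interval -3.41% to 15.4%, edgeR adjusted p = 0.297).

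Nfkb2 (chr19:46304320-46312385, plus strand) encodes p100, the precursor of p52, which also acts as an IκB for RelB. The values were 67.1, 79.4, 76.3 and 65.4 CPM in the controls and 71.0, 65.2, 65.6 and 67.2 CPM after the MAARS gapmeR. All MAARS gapmeR libraries but replicate 11 fell inside the control range, and the log2 difference was -0.10 (SE 0.0662, 95% interval -15.6% to 3.20%, edgeR adjusted p = 0.241). Opposite-strand genes, Psd among them, overlap 18.1% of its exons, and Psd gave 6.97 and 7.39 CPM in the controls and after the MAARS gapmeR (log2 difference 0.08, edgeR adjusted p = 0.706). These intervals exclude for Nfkb1, Nfkb2 and Rela a decrease of the size seen in Relb, but not a change of several percent.

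**Figure D3:**
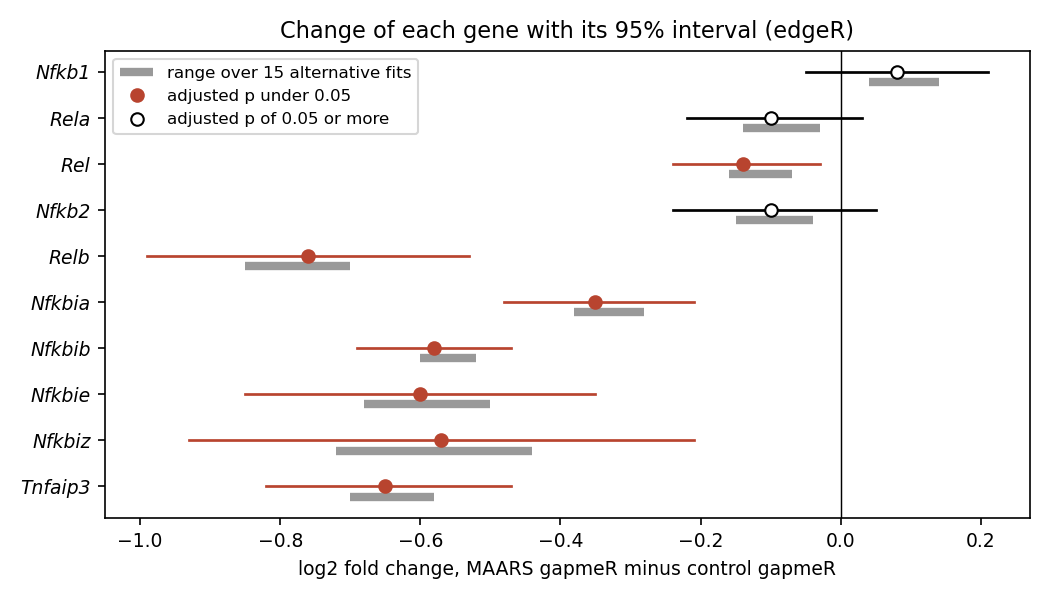
Log2 fold change of each member, MAARS gapmeR against control gapmeR (x axis), with its 95% interval as a thin line and the range over 15 alternative fits as a grey bar under it. The 5 inhibitors lie between -0.65 and -0.35, Relb lies at -0.76, and the intervals of Nfkb1, Nfkb2 and Rela cross 0.

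The plot of changes with their alternative fits showed the same sign for each member in all 15 fits. Relb ranged from -0.85 to -0.70, Tnfaip3 from -0.70 to -0.58 and Nfkbib from -0.60 to -0.52. Nfkbie, Nfkbiz and Nfkbia ranged from -0.68 to -0.50, from -0.72 to -0.44 and from -0.38 to -0.28, and these 6 passed the threshold in each of the 15. Control replicate 2 was the lowest control for 6 members (Rela, Relb, Nfkbia, Nfkbib, Nfkbie and Nfkbiz) and the highest for Rel and Tnfaip3. It also had the lowest control sum of 20 interferon-stimulated genes, 7531 CPM against 9008 to 11116 CPM in the other 3 controls.

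Levels of different genes were compared per length, as CPM per kilobase of the union of each gene's exons. In the controls Rela was highest at 33.9 ± 2.61, followed by Nfkbia at 27.0 ± 1.86, Nfkbib at 16.9 ± 0.169 and Nfkb2 at 15.7 ± 1.5 CPM per kilobase. The ranges of Nfkbib and Nfkb2 overlapped, so their order was not resolved with these lengths. Relb at 9.16 ± 1.29, Nfkb1 at 7.59 ± 0.600, Nfkbie at 6.34 ± 1.08 and Rel at 5.74 ± 0.152 CPM per kilobase each overlapped their neighbour in the order. Tnfaip3 at 3.26 ± 0.255 and Nfkbiz at 1.90 ± 0.224 CPM per kilobase were lowest and separate from the rest.

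After the MAARS gapmeR, Nfkbia stood at 21.2 ± 1.18, Nfkb2 at 14.7 ± 0.580, Nfkbib at 11.3 ± 0.315, Nfkb1 at 8.01 ± 0.303 and Relb at 5.42 ± 0.532 CPM per kilobase. Nfkbib then stood below Nfkb2 and Relb below Nfkb1, with the ranges apart in both pairs. These orders depend on the length used. By the longest coding transcript, Nfkb2 was already above Nfkbib in the controls (20.8 to 25.3 against 17.6 to 18.0 CPM per kilobase) and Nfkb1 above Relb (20.3 to 24.3 against 12.7 to 17.7 CPM per kilobase). For Nfkb1 the union of exons is 12061 nt and the longest coding transcript 4117 nt, and by the latter it stood at 22.2 ± 1.76 CPM per kilobase in the controls, at rank 4 of the 10 in place of rank 6. Lengths of single transcripts were added after the data had been seen.

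**Figure D4:**
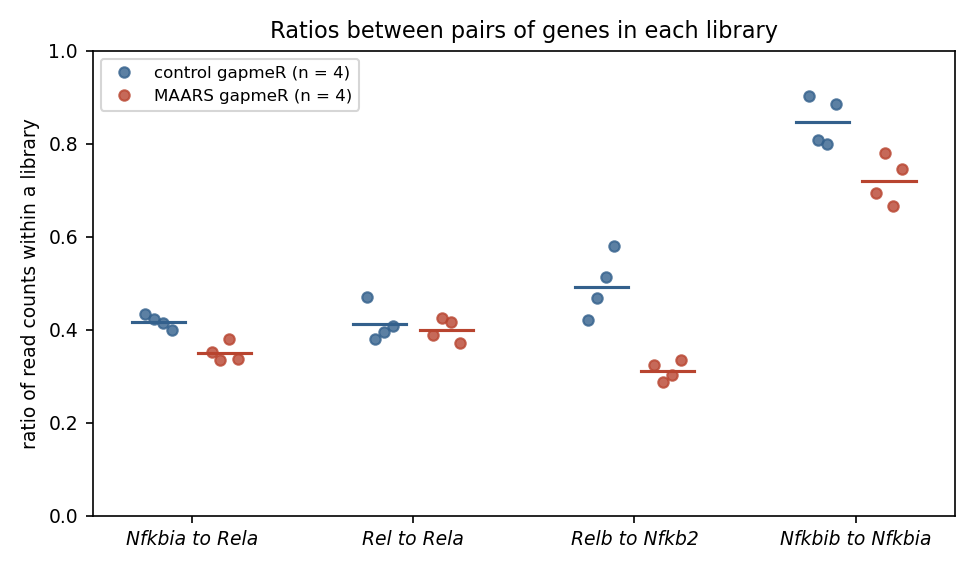
Ratio of the counts of member pairs within each library (y axis) for the 4 control gapmeR and 4 MAARS gapmeR libraries, with a bar at each group's geometric mean. The groups are apart for Nfkbia to Rela, Relb to Nfkb2 and Nfkbib to Nfkbia and overlap for Rel to Rela.

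Ratios of counts within a library do not depend on its scaling, and they are given for functional pairs with no test. They are ratios of RNA, and protein, IκB degradation and NF-κB activity were not measured in these libraries. In separate experiments the paper reports that MAARS gapmeRs left the activity of NF-κB signalling in BMDMs unaffected. The inhibitor Nfkbia had 0.433, 0.422, 0.415 and 0.399 counts per count of its target subunit Rela in the controls and 0.352, 0.335, 0.381 and 0.337 after the MAARS gapmeR. These ranges were apart, with a log2 difference of -0.25. For Relb per count of its partner Nfkb2 the ratios were 0.420, 0.468, 0.513 and 0.579 in the controls and 0.325, 0.288, 0.303 and 0.335 after the MAARS gapmeR, a log2 difference of -0.66. No MAARS gapmeR library reached the lowest control ratio. Rel per count of Rela gave 0.471, 0.379, 0.394 and 0.408 in the controls and 0.389, 0.426, 0.417 and 0.371 after the MAARS gapmeR. Those ranges overlapped, and the log2 difference was -0.04. Between the inhibitors, Nfkbib per count of Nfkbia went from 0.799 to 0.903 in the controls down to 0.665 to 0.779 after the MAARS gapmeR, a log2 difference of -0.24.

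Some members lie on the same chromosome without being neighbours. Relb and Nfkbib are 9.13 Mb apart on chromosome 7, and both fell. Rela and Nfkb2 are 40.7 Mb apart on chromosome 19, and neither was called. Of the 5 members with a κB match in their promoter window, 4 fell (Rel only under some analyses) and Nfkb2 was not called. Of the 2 without a match, Nfkbib fell and Rela was not called. Among all genes tested 24.0% were called lower, and a link between matches and calls was not tested. The member with the smallest p, Nfkbib, was among those with no match in the 300 bases read.

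The course of Nfkbib over the 8 libraries was compared with that of every gene tested, by the root mean square difference of log2 CPM, each gene relative to its own control mean. The closest genes were Mdfic, a regulator of transcription factors, at 0.0324 (332.2 to 223.5 CPM), Nfu1, an iron-sulphur cluster protein of mitochondria, at 0.0327 (60.2 to 40.2 CPM), and Smpdl3b, a lipid phosphodiesterase, at 0.0421 (6.73 to 4.61 CPM). Among the members Tnfaip3 was closest at 0.115, which was rank 250 among all genes, then Nfkbie at 0.166, Nfkbia at 0.187 and Relb at 0.196. Nfkb1 was farthest at 0.475. These values describe 8 libraries in 2 groups and share their scaling. For Smpdl3b counting error alone gives a coefficient of variation of 8.73% in the controls, where 1.59% was seen. The closest of so many genes can therefore be close by chance, which was not tested.

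**Figure D5:**
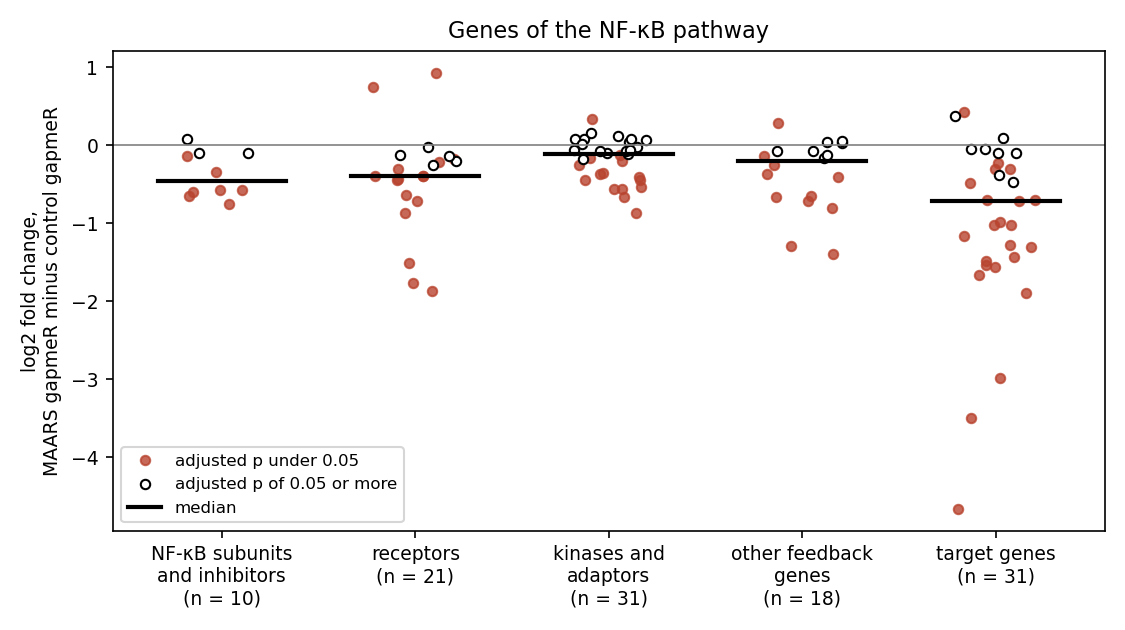
Log2 fold change (y axis) of every tested gene among the members and in 4 lists of the pathway, filled where the adjusted p was under 0.05, with the median of each list as a bar. Medians are -0.46 for the members, -0.39 for receptors, -0.11 for kinases and adaptors, -0.21 for other feedback genes and -0.72 for target genes.

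The rest of the pathway was read from lists of receptors, kinases and adaptors, other feedback genes and target genes. Over all genes tested, 24.0% were called lower and 21.3% higher. Of the receptors that feed NF-κB, 21 of 22 were tested, 14 fell (66.7%) and 2 rose (9.52%), with a median log2 fold change of -0.39. Tlr3, the endosomal sensor of double-stranded RNA, fell from 68.0 ± 11.4 to 23.8 ± 2.92 CPM (log2 fold change -1.51, edgeR adjusted p = 5.87e-06), and Tlr9, the sensor of unmethylated CpG DNA, from 45.1 ± 14.3 to 12.4 ± 1.24 CPM (-1.87, edgeR adjusted p = 2.64e-05). Cd40, a receptor of the non-canonical pathway in which RelB acts, fell from 12.9 ± 2.90 to 3.8 ± 0.970 CPM (-1.76, edgeR adjusted p = 3.88e-05). The 2 receptors that rose, named after their values were seen, were Tlr5, the flagellin receptor, by 0.93 and Cd14, the coreceptor for lipopolysaccharide, by 0.74 on the log2 scale.

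All 31 kinases and adaptors were tested, of which 14 fell (45.2%, against 24.0% of all genes tested), 1 rose and 16 were not called. The median of this list was -0.11. Myd88, the adaptor of most Toll-like receptors, fell from 123.6 ± 12.9 to 67.5 ± 3.01 CPM (log2 fold change -0.87, SE 0.0715, edgeR adjusted p = 6.7e-06). Irak2, a kinase recruited by MyD88, fell from 53.3 ± 3.38 to 36.7 ± 1.58 CPM, and Rnf31, the catalytic subunit of the linear ubiquitin ligase, from 51.1 ± 2.42 to 34.6 ± 2.73 CPM. The gene that rose was Tab1, an activator of the kinase TAK1 (log2 fold change 0.33, edgeR adjusted p = 0.0104). Of the IκB kinase subunits, picked for their role, Chuk (IKKα) was called at -0.20 and Ikbkb (IKKβ) and Ikbkg (NEMO) were not, at -0.06 and 0.06 on the log2 scale. Map3k14, the kinase NIK that starts processing of p100, was not called at 0.08.

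Among 18 other IκB proteins and feedback genes 10 fell (55.6%, against 24.0% of all genes tested) and 1 rose, with a median of -0.21. Pdlim2, a nuclear ubiquitin ligase for RelA, went from 40.1 ± 2.57 to 25.3 ± 0.945 CPM (log2 fold change -0.66), Nlrc5, a regulator of MHC class I genes also described as an NF-κB inhibitor, from 78.5 ± 8.47 to 32.1 ± 6.60 CPM (-1.29), and Tnip1, a partner of A20, from 141.2 ± 4.61 to 106.5 ± 2.36 CPM (-0.41), with edgeR adjusted p = 1.08e-05, 1.8e-05 and 2.09e-05. Commd1, which promotes the removal of RelA from chromatin, was the gene that rose (log2 fold change 0.29, edgeR adjusted p = 0.00203).

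Of 38 textbook target genes 31 were tested. Among those, 22 fell (71.0%, against 24.0% of all genes tested), 1 rose and 8 were not called, with a median of -0.72. The largest falls, named after their values were seen, were those of Cxcl10 (-4.66 on the log2 scale) and Ccl5 (-3.50). Not called were Cxcl2, Vcam1, Ptgs2, Bcl2a1b, Saa3, Tnfsf9, Mmp9 and Ptges. The chemokine gene Ccl4 went from 56.1 ± 1.28 to 20.8 ± 2.96 CPM (-1.43 on the log2 scale), the cytokine gene Il1a from 15.1 ± 0.938 to 4.75 ± 0.673 CPM (-1.67) and the chemokine-binding receptor gene Ccrl2 from 37.3 ± 2.91 to 13.3 ± 2.11 CPM (-1.49), with edgeR adjusted p = 3.7e-06, 4.79e-06 and 5.03e-06. The target that rose was Ier3, an early stress-response gene, by 0.42 on the log2 scale. The 7 targets not tested were Il6, Il12b, Il23a, Cxcl1, Nos2, Csf2 and Csf3, none of which passed 16 counts in a library.

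Interferon-stimulated genes changed in the same direction as the members that fell. All 20 fell, against 24.0% of all genes tested, with a median of -2.71 on the log2 scale. Their summed level was 7531 to 11116 CPM in the controls and 901 to 2144 CPM after the MAARS gapmeR. Several pathway genes named here, Tlr3, Tlr9, Myd88 and Nlrc5 among them, are known to respond to interferon as well as to NF-κB. The part of the interferon-stimulated genes in the changes of the 10 members and of the target genes was not tested.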

How the data were processed

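The authors trimmed paired-end reads of ribodepleted RNA with Trimmomatic 0.36, aligned them with STAR 2.5.2b to GRCm38 (mm10) and counted them per Ensembl gene with featureCounts of Subread 1.5.2. The deposited table holds raw counts for 49315 genes in 8 libraries. Symbols, positions and exon lengths came from GENCODE M21, which held 99.3% of the IDs. Handling of strand and of reads with several positions is not given in the sources used here.

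Genes were kept by filterByExpr (minimum count 10), scaled by TMM factors and tested with edgeR 4.0.16 in R 4.3.3 (glmQLFit and glmQLFTest, MAARS gapmeR against control gapmeR, no covariate). P-values were adjusted by the Benjamini-Hochberg procedure. CPM used TMM-scaled library sizes. A gene was called at an adjusted p under 0.05. The procedure was tested on simulated data in which 200 genes were changed, as many up as down. Since 5919 genes were called in the real libraries, that simulation does not test the scaling used for them. Alternatives were RLE and upper-quartile factors, DESeq2 1.42.0, limma-voom (limma 3.58.1), 2 other filters, a robust prior and leaving out each library.

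All members were named, together with the 3 genes of smallest p in each pathway list, the 3 genes most like the leading member, and MAARS. Members and lists were chosen with earlier results of these data known. Promoter sequences came from RefSeq.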

Additional observations from a re-analysis of the deposited data

Results flagged for a closer look

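Of 60 sets of 4 library values examined, 1 held a value far from the other 3 by Dixon's criterion, which chance meets in about 1 of 20 sets. Cd40, a receptor gene named beside Relb, stood at 17.3 CPM in control gapmeR replicate 6 and at 11.1, 11.4 and 12 CPM in the other controls, a gap of 0.843 of the group's range, just past the critical value. All MAARS gapmeR libraries lay below the lowest of these controls.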

How the results depend on the processing

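Over 15 alternative fits, the count of members called lower was 6 to 7, and it was 5 in the reported fit at an adjusted p under 0.01. In each of these 0 members were called higher. Of the kinases and adaptors, 1 gene was higher in the reported analysis, 4 were with upper-quartile factors, 0 at an adjusted p under 0.01, and 1 to 2 when 1 library was left out (2 without control replicate 5). The cause was not tested, except that a stricter threshold can only remove calls. The log2 difference of Rel per count of Rela ran from -0.08 to 0.02 when 1 library was left out, and it changed sign to 0.02 without control replicate 2. Rel lost its call in 9 alternatives and Rela gained one in 1, as given with their values. With the longest coding transcript in place of all exons, the level per kilobase of 8 of the 10 members moved beyond 1 SD. Of the single results under all alternatives, 398 kept their direction and side of the threshold or moved within the spread. The depth gave 119 to 2378 raw counts per member and library, so counting error limits Nfkbiz most, at a coefficient of variation of 8.30% after the MAARS gapmeR. No paired analysis was possible because the groups share no replicate number.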
